A study of Mus musculus with 2 samples.

Results

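The 9 genes described here encode proteins of the junctions that seal and hold together retinal endothelial cells: Cldn5, Ocln, Lsr, Jam2, F11r, Esam, Tjp1, Cdh5 and Pecam1. They were chosen by name, and they are 9 of the 19813 genes with a row in the count tables of both libraries. Retinal endothelial cells of wild-type C57BL/6 mice were sorted as CD31+ CD45- and sequenced in droplets, as 1 library from postnatal day 6 (P6) and 1 library from postnatal day 15 (P15). The P6 table held 13958124 unique molecular identifiers (UMIs, each marking 1 captured mRNA) in 1984 barcodes, and the P15 table held 11589641 UMIs in 2141 barcodes. Both tables held 7 of the same barcode sequences. CD31 is the protein made from Pecam1, so the sort itself selected cells by the product of 1 of the 9 genes.

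Tight junctions are strands of membrane proteins, claudins and occludin among them, that close the gap between neighbouring cells, and scaffold proteins tie these strands to actin. Adherens junctions, built in endothelium on VE-cadherin, hold the cells together and carry force between them. In the retina the tight junctions of endothelium form the inner blood-retina barrier, and the vessel network grows and matures during the first postnatal weeks.

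Levels are given as CPM, the UMIs of a gene per 1000000 UMIs of all genes in those cells. Unless stated otherwise they are from cells that passed a filter: 200 to 3500 genes, a mitochondrial share of 5% or less, and none of Cd63, Neurod1 and Hbb-bt detected. This left 1424 cells at P6, whose median depth was 4985.5 UMIs, and 1644 at P15, whose median depth was 4214.5 UMIs. Intervals in parentheses are 95% intervals, from the exact Poisson distribution for levels, the conditional binomial for a ratio and Clopper-Pearson limits for shares of cells, and include only the error of counting. Each age had 1 library and no replicates, so no test was made, and a difference of age cannot be told apart from a difference between these libraries. The libraries also differed in the levels of sex-linked genes, although the paper states that its experiments used males and females in equal numbers. Xist was at 45.4 CPM at P6 and 18.7 CPM at P15, and 4 Y-linked genes were together at 83.2 and 206 CPM.

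The promoters of Cldn5 and Ocln are shown because both genes were more than 1.5-fold higher in the P15 library. Each runs from 250 bases before to 50 bases after the start of the gene, in the RefSeq table of build GRCm38.p6, which held promoters of 5 of the 9 genes. The Cldn5 window is chr16:18776597-18776896 on the + strand, and the Ocln window is chr13:100552669-100552968 on the - strand. Capitals mark matches to CCGGAA, a core of ETS factor motifs, to AACAAT (SOX), to TTCAAAG (TCF/LEF) or to TGTTTAC (FOX), searched on both strands. This Ocln window held CCGGAA at 1 place, and the Cldn5 window held 0 matches. A second Ocln promoter in the table, chr13:100552449-100552748, held 0 matches and is not shown. Of 32851 promoters of this length, 14.9% held CCGGAA, 10.7% AACAAT, 5.14% TTCAAAG and 3.65% TGTTTAC.
Cldn5: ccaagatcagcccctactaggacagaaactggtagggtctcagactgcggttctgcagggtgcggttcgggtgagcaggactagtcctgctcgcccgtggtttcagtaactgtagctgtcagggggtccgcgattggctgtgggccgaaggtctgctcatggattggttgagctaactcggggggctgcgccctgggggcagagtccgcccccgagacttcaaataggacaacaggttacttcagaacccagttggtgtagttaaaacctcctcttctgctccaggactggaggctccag
Ocln: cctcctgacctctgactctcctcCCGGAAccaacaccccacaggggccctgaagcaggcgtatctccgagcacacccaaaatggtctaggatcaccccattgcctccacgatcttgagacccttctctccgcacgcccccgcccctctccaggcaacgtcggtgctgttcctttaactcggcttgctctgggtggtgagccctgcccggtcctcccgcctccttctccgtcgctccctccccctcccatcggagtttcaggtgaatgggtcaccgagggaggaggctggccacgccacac

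Between the ages, 3 of the 8 junction genes with 100 UMIs or more over both libraries were at least 1.5-fold higher at P15, and 0 were lower by that much. Of all 9382 genes with that many UMIs, 17.5% were higher and 10.5% were lower by 1.5-fold or more. The 3 genes were Cldn5, Ocln and Jam2. Lsr also had a ratio above 1.5 but too few UMIs to be counted. The median ratio was 1.33 over the 8 junction genes and 1.09 over all genes.

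Cldn5 encodes claudin-5, the main claudin of endothelial tight junctions in brain and retina. Its level was 5584 CPM at P6 (5531 to 5637) and 9955 CPM at P15 (9884 to 10028), a ratio of 1.78 (1.76 to 1.80). The higher level was spread over the cells. Per 10000 UMIs of a cell, Cldn5 had a median of 55.1 UMIs at P6, with a range from 0 to 227, and a median of 96.4 UMIs at P15, with a range from 0 to 293. Only 3 P6 cells and 1 P15 cell had no UMI of Cldn5.

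Ocln encodes occludin, a membrane protein of the tight junction strands. It was counted at 123 CPM at P6 (115 to 131) and 254 CPM at P15 (243 to 266), a ratio of 2.06 (1.91 to 2.23). The share of cells with an Ocln UMI was 43.4% (40.8 to 46.0%) at P6 and 63.1% (60.7 to 65.4%) at P15. Thinning, a random draw of 3000 UMIs from each cell, left out 179 P6 and 481 P15 cells that were shallower, and gave shares of 30.4% (27.8 to 33.0%) and 52.7% (49.8 to 55.6%). The difference between the ages was thus present at equal depth.

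Lsr encodes angulin-1, which recruits tricellulin to the corners where cells meet. It was scarcely counted. There were 12 UMIs at P6, a level of 1.57 CPM (0.811 to 2.74), and 26 UMIs at P15, a level of 3.53 CPM (2.30 to 5.17). The ratio was 2.25 (1.10 to 4.89). Random thinning gave values that depended on the draw, a ratio of 1.07 in 1 draw and levels of 1.34 and 3.44 CPM in another. Exons of 2 antisense genes, Gm17077 and Gm4673, overlap those of Lsr, and whether the counting used strand is not given in the sources used here. Lsr was too sparse for a difference between ages or clusters to be read.

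The junctional adhesion molecules are immunoglobulin-like proteins at the cell border, and the 3 genes of this group differed in their ratios. Jam2, which encodes JAM-B, had a level of 76.1 CPM at P6 (70.0 to 82.5) and 133 CPM at P15 (125 to 141), a ratio of 1.75 (1.57 to 1.94). Esam, an endothelial adhesion molecule of the same family, had a level of 1118 CPM at P6 (1094 to 1142) and 1545 CPM at P15 (1517 to 1574), a ratio of 1.38 (1.34 to 1.42). F11r, which encodes JAM-A, had a level of 315 CPM at P6 (302 to 328) and 331 CPM at P15 (318 to 345), a ratio of 1.05 (0.995 to 1.11). The interval of F11r included a ratio of 1.

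Tjp1 encodes ZO-1, the scaffold that links strand proteins to actin. Its level was 150 CPM at P6 (141 to 159) and 124 CPM at P15 (116 to 132), a ratio of 0.827 (0.757 to 0.903). After thinning, 33.9% (31.3 to 36.6%) of P6 cells and 29.1% (26.5 to 31.9%) of P15 cells had a Tjp1 UMI. The scaffold was therefore lower in the library in which Cldn5 and Ocln were higher, by less than 1.5-fold.

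Cdh5 encodes VE-cadherin, the cadherin of endothelial adherens junctions. Its level was 539 CPM at P6 (522 to 555) and 506 CPM at P15 (490 to 522), a ratio of 0.939 (0.898 to 0.982). Pecam1 encodes an adhesion protein that binds itself across the endothelial border. Its level was 527 CPM at P6 (511 to 544) and 679 CPM at P15 (660 to 698), a ratio of 1.29 (1.23 to 1.34). Neither gene reached 1.5-fold.

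**Figure D1:**
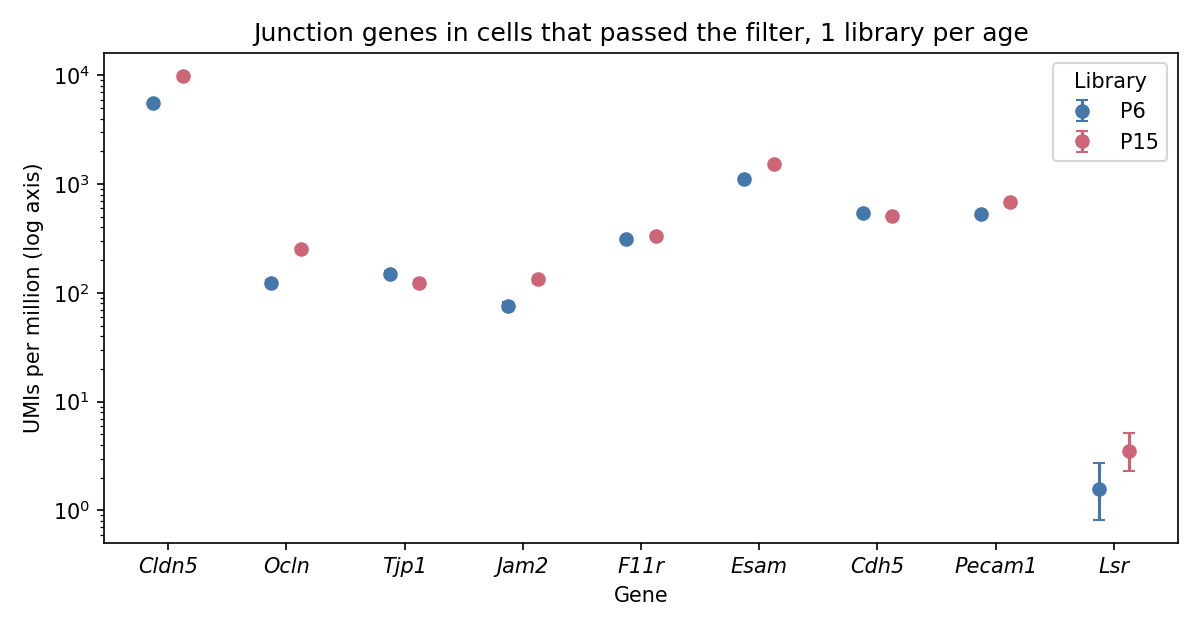
Level of each junction gene in CPM on a log axis, for the P6 and P15 libraries, with exact Poisson 95% intervals as bars that are mostly smaller than the points. The points of Cldn5, Ocln, Jam2 and the sparsely counted Lsr lie farther apart than those of Tjp1, F11r, Cdh5 and Pecam1.

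A ratio to Cdh5 in the same cells needs no total. Cldn5 UMIs per Cdh5 UMI were 10.4 at P6 and 19.7 at P15. For Ocln they were 0.229 at P6 and 0.502 at P15, and for Jam2 0.141 at P6 and 0.263 at P15. For Tjp1 they were 0.278 at P6 and 0.245 at P15. The strand genes Cldn5 and Ocln were thus higher at P15 per UMI of the adherens junction cadherin, and Tjp1 was not.

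The choice of total bears on these ratios. Ribosomal protein genes made up a median of 19.5% of the UMIs of a P6 cell and 10.9% of a P15 cell. On the log2 scale the median of all genes was 0.12 higher at P15. Scaled by the median of ratios over genes in place of the total, the ratio was 1.63 for Cldn5, 1.89 for Ocln and 1.60 for Jam2. F11r turned from 1.05 to 0.966 with that scaling, and to 0.947 with a total without ribosomal protein and mitochondrial genes. Among all genes past 1.5-fold, 62.5% were higher at P15 with the total of all UMIs, 47.3% with the median of ratios and 44.0% without ribosomal protein and mitochondrial genes.

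The study named 9 clusters of its cells, and the labels used here cover 1560 P6 cells, all of which were used here, whether or not they passed the filter. The clusters were built from the same counts, so differences among them describe the clusters and test nothing. Each cluster was compared with all other labelled P6 cells. Of 72 pairs of a junction gene and a cluster with at least 10 expected UMIs, 9 were higher and 12 were lower by 1.5-fold or more. Over all genes, 7.78% of such pairs were higher and 13.7% were lower.

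The higher pairs lay in the capillary and arterial clusters. In Capillary cells Ocln, F11r and Cdh5 were higher and 0 genes lower, where 16.7% of all genes were higher and 9.43% lower. Ocln, Jam2 and F11r were higher in Cap-Arterial cells, with 13.3% of all genes higher and 12% lower. The same 3 genes were higher in Arterial cells, with 14.3% of all genes higher and 18.7% lower. Proliferative cells were low for Cldn5, Ocln and Jam2, with 8.89% of all genes higher and 11% lower. Tip cells were low for Ocln alone, with 6.02% of all genes higher and 9.09% lower. No junction gene passed 1.5-fold in the other 3 differentiated clusters. The shares of all genes higher and lower were 2.96% and 7.28% in Stalk cells, 5.58% and 10.4% in Venous cells, and 1.86% and 6.36% in Cap-Venous cells.

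Most of the higher pairs lay near the limit of 1.5-fold, and Jam2 in Cap-Arterial and Arterial cells were the only ones that held under every other choice of cells, depth, total and weights. With a total without ribosomal protein and mitochondrial genes, 3 of the 9 passed, both of Jam2 and Ocln in Capillary cells. After thinning in 1 draw, Capillary cells kept no call, with Ocln at 1.38, F11r at 1.48 and Cdh5 at 1.48. Ocln in Arterial cells was at 1.49, from 1.52 at full depth. Thinning left out 58 of the 149 Capillary cells. In another draw, F11r and Cdh5 in Capillary cells and Ocln in Arterial cells stayed past 1.5-fold, so these losses depended on the draw. The first draw brought in Tjp1 in Capillary cells at 1.59 and F11r in Venous cells at 1.57. In the other draw F11r in Venous cells was under 1.5-fold. Of the lower pairs outside Primitive cells, only Jam2 in Proliferative cells held throughout. Among labelled cells that pass the filter, Cldn5 and Ocln in Proliferative cells were at 0.696 and 0.701. After thinning, Ocln in Tip cells was at 0.706, and Jam2 in Venous cells became a lower pair at 0.468.

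Of the 12 lower pairs, 8 lay in Primitive cells, where all 8 junction genes with enough UMIs were at least 1.5-fold lower. In that cluster 39.3% of all genes were lower by as much and 5.62% were higher. The median ratio there was 0.504 over the 8 junction genes and 0.776 over all genes. Primitive cells also had the highest median ribosomal share of the P6 clusters, at 26.8%. Without ribosomal protein and mitochondrial genes in the total, 6 of the 8 stayed past 1.5-fold there, with Cldn5 at 0.535, while Esam at 0.672 and Cdh5 at 0.676 did not.

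By cluster, Cldn5 was lowest at 2763 CPM in Primitive cells (2658 to 2872) and next lowest at 3796 CPM in Proliferative cells (3703 to 3890). It was highest at 7492 CPM in Capillary cells (7259 to 7730). In falling order the clusters were Capillary, Venous, Arterial, Cap-Venous, Cap-Arterial, Tip, Stalk, Proliferative and Primitive. Intervals of neighbours overlapped from Venous to Cap-Arterial, 3 of the 8 neighbouring pairs, and were separate for the other 5. Capillary cells had the lowest median depth of the P6 clusters, 3204 UMIs, and the highest median mitochondrial share, 2.51%.

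Ocln was lower in Tip cells, the leading cells of sprouts, than in the Stalk cells that follow them. It was counted at 71.5 CPM in Tip cells (56.7 to 89.0) and at 131 CPM in Stalk cells (113 to 151). After thinning in 1 draw, which left out 14 Tip and 25 Stalk cells, the difference was smaller, with levels of 91.9 and 133 CPM. The shares of cells with an Ocln UMI, 23.1% (16.7 to 30.5%) and 31.2% (24.9 to 38.05%), overlapped in their intervals. Whether the smaller difference came from depth, the cells left out or the draw was not tested. The lowest level was 47.8 CPM in Primitive cells (34.8 to 63.9), and the highest was 180 CPM in Capillary cells (145 to 220). Cldn5 did not share the low level in Tip cells, where its ratio to other cells was 1.11 (1.08 to 1.14) and that of Ocln was 0.595 (0.468 to 0.748). In the P15 library Ocln was likewise lower in Tip than in Stalk cells, with 116 CPM in Tip cells (79.9 to 163) and 288 CPM in Stalk cells (238 to 346), and Tip rather than Primitive cells were lowest.

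Jam2 was highest on the arterial side. It was counted at 172 CPM in Cap-Arterial cells (145 to 203) and 152 CPM in Arterial cells (102 to 217), and the next level was 83.8 CPM in Cap-Venous cells (73.2 to 95.5). The ratio to other cells was 2.64 (2.19 to 3.18) in Cap-Arterial cells. Apart from the gap between Arterial and Cap-Venous, intervals of neighbouring clusters overlapped. After thinning, 38.3% (30.1 to 47.2%) of Cap-Arterial cells and 22.9% (18.8 to 27.4%) of Cap-Venous cells had a Jam2 UMI.

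F11r was highest at 506 CPM in Arterial cells (412 to 616), followed by 465 CPM in Capillary cells (408 to 527) and 463 CPM in Cap-Arterial cells (418 to 511), with intervals that overlapped. It was lowest at 151 CPM in Primitive cells (127 to 178). Esam ran from 691 CPM in Primitive cells (639 to 746) to 1490 CPM in Capillary cells (1387 to 1598), and passed 1.5-fold in Primitive cells alone. Tjp1 ran from 78.6 CPM in Primitive cells (61.7 to 98.6) to 210 CPM in Capillary cells (173 to 254), with overlapping intervals between all neighbours except Proliferative and Primitive.

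At P6 the adhesion genes Cdh5 and Pecam1 were lowest in Primitive and highest in Capillary cells as well. Cdh5 ran from 331 CPM in Primitive cells (295 to 370) to 780 CPM in Capillary cells (706 to 860). Pecam1 ran from 310 CPM in Primitive cells (275 to 348) to 734 CPM in Capillary cells (663 to 812). Its second highest level was 698 CPM in Tip cells (650 to 749), with an interval that overlapped that of Capillary cells. Lsr had 0 to 7 UMIs in each P6 cluster, and no order could be read.

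**Figure D2:**
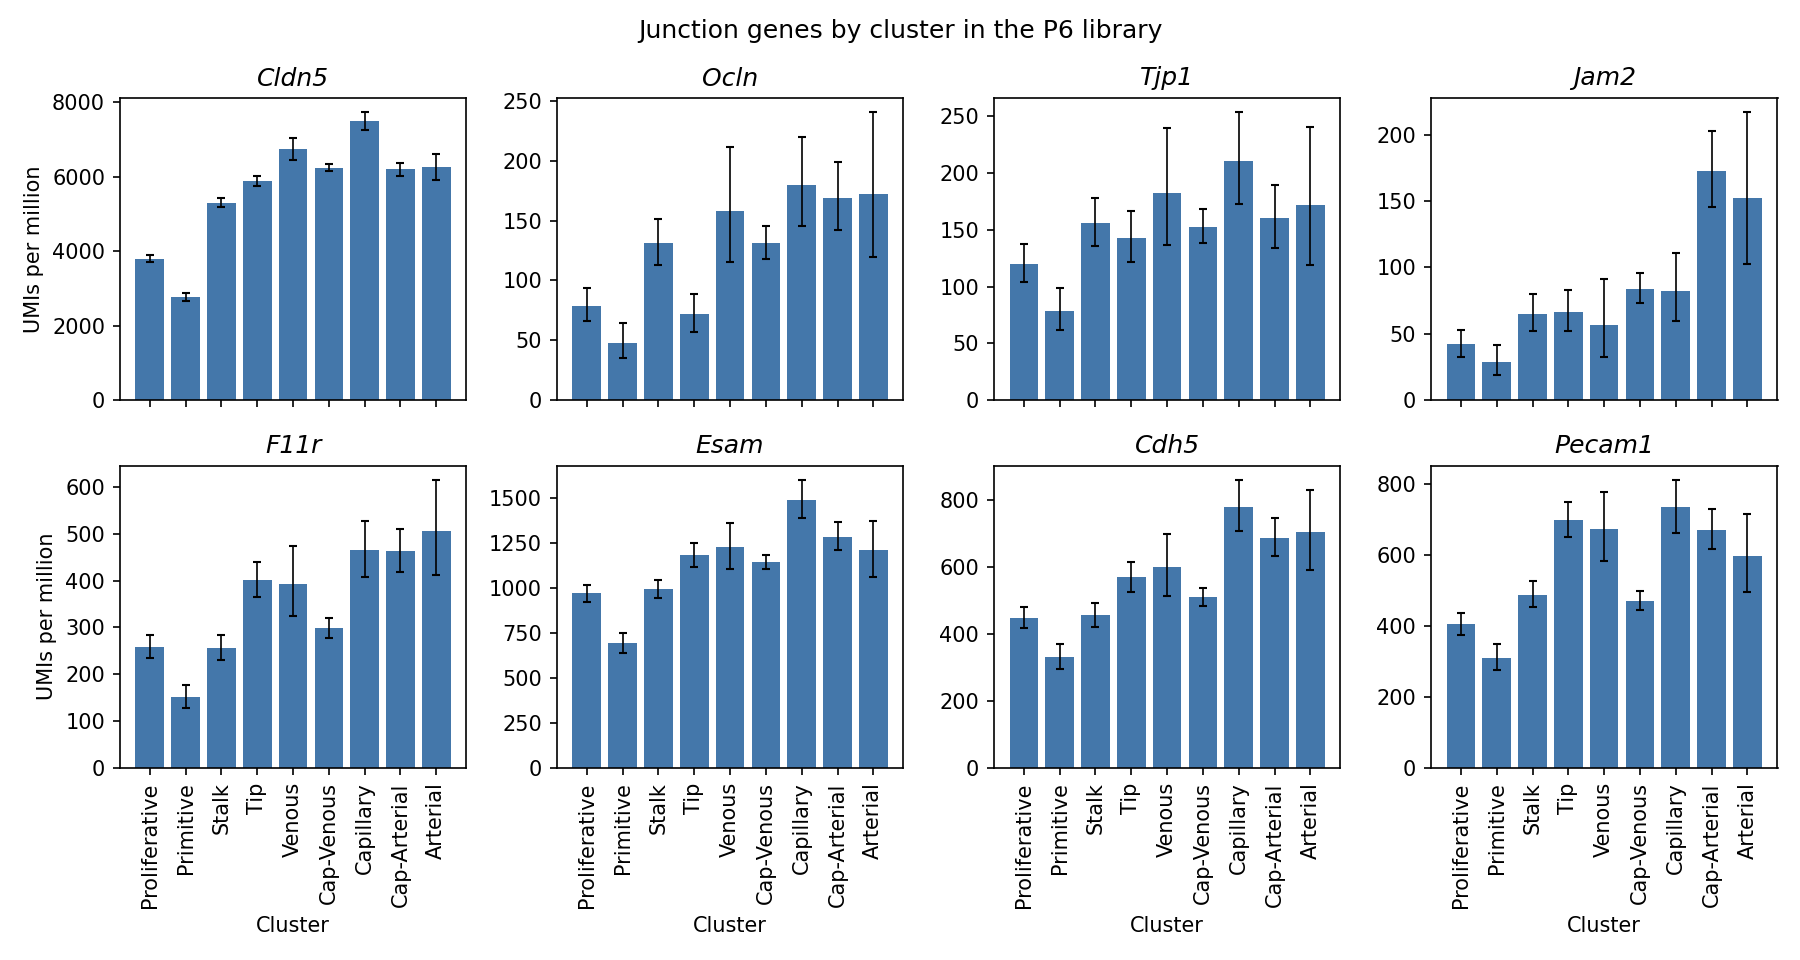
Level of 8 junction genes in CPM in each of the 9 clusters of the P6 library, with exact Poisson 95% intervals as bars. Primitive cells are lowest in all 8 panels, and Jam2 is highest in Cap-Arterial and Arterial cells.

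Per cell, the median number of the 9 genes with a UMI after thinning to 3000 UMIs was 5 in filtered cells of either age. In Primitive P6 cells the median was 4 genes, and 40.0% of these cells had 3 genes or fewer. In Cap-Arterial P6 cells the median was 6 genes, and 5.26% had 3 or fewer. The spread among clusters was thus also seen in single cells at an equal total of UMIs. Thinning did not equal the ribosomal share, a median of 26.8% in Primitive and 17.1% in Cap-Arterial P6 cells. The part of that difference was not tested.

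Over the 9 P6 clusters, the genes with the pattern most like that of Cldn5, among 3102 other genes with at least 500 UMIs, were Plekhg1, Sptan1, Egfl7, Pttg1ip and Glmp, with Pearson r from 0.967 to 0.988. These correlations are over 9 points from 1 library and describe them only. The gene most like Esam was Egfl7 (r = 0.993), and that most like Cdh5 was Tie1 (r = 0.986). For Ocln it was Hip1 (r = 0.974), for Tjp1 Kat6b (r = 0.983), for Jam2 Fez2 (r = 0.981), for F11r Ubxn4 (r = 0.982) and for Pecam1 Sparc (r = 0.973). Lsr was nearest to Nedd4, but its 16 UMIs are too sparse for a pattern.

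Ages were then compared within clusters, between cells that carry the same label. The labels used here cover 438 P15 cells, those whose barcodes come first in alphabetical order, and 6 clusters had 20 labelled cells or more in both libraries. Of 45 pairs of a junction gene and a cluster with at least 10 expected UMIs, 18 were at least 1.5-fold higher and 1 was at least 1.5-fold lower at P15. Over all genes, 17.7% of such pairs were higher and 14.8% were lower.

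Cldn5 was higher at P15 in all 6 clusters, and past 1.5-fold in 5. In Primitive cells its level was 2763 CPM at P6 and 7457 CPM at P15, a ratio of 2.70 (2.501 to 2.91). In Capillary cells its level was 7492 and 10564 CPM, a ratio of 1.41 (1.32 to 1.51). Of these 6 clusters the one with the lowest P6 level thus had the largest ratio, and the one with the highest P6 level the smallest. The P6 level is the divisor of this ratio, so the ratio depends on it by construction. For Ocln, the lowest P6 level of the 5 counted clusters, 71.5 CPM in Tip cells, went with the smallest ratio. Primitive cells, not counted for Ocln, had a still lower P6 level, 47.8 CPM, and a larger ratio, 4.73 (2.84 to 7.75). With predicted P15 labels Ocln was counted in Primitive cells, and its ratio there was 4.83 (3.38 to 7.02).

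Ocln was past 1.5-fold in all 5 clusters in which it was counted, from 1.62 (1.05 to 2.47) in Tip cells to 2.20 (1.73 to 2.80) in Stalk cells. Jam2 was past 1.5-fold in 3 of 4 clusters. Its ratio was 2.30 (1.63 to 3.23) in Stalk cells and 1.13 (0.821 to 1.54) in Cap-Arterial cells, where its P6 level was highest. Pairs under 10 expected UMIs in the smaller library were not counted. Apart from Lsr they were Ocln in Primitive cells, at 4.73 (2.84 to 7.75), and Jam2 in Primitive cells, at 4.22 (2.09 to 8.23), and in Capillary cells, at 1.03 (0.444 to 2.15).

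Esam and Pecam1 were above a ratio of 1 in all 6 clusters. Esam ran from 1.21 (1.02 to 1.42) in Capillary to 1.60 (1.32 to 1.93) in Primitive cells. Pecam1 ran from 1.13 (0.888 to 1.43) in Capillary to 2.24 (1.74 to 2.86) in Primitive cells, the only cluster past 1.5-fold. F11r passed 1.5-fold in 0 of 6 clusters, with ratios from 0.773 (0.534 to 1.09) in Capillary to 1.34 (1.09 to 1.63) in Stalk cells. Cdh5 passed it in Primitive cells alone, at 1.53 (1.15 to 2.02), and was lowest in Tip cells, at 0.767 (0.627 to 0.931). Tjp1 was above 1 in 2 of 6 clusters, and its lowest ratio was 0.659 (0.434 to 0.976) in Cap-Arterial cells. Calls were lost and gained after thinning, with predicted P15 labels or without ribosomal protein and mitochondrial genes in the total. Cldn5 passed 1.5-fold in all 3 settings in Primitive, Stalk, Tip and Cap-Venous cells, Ocln in Stalk, Cap-Venous and Cap-Arterial cells, Jam2 in Stalk cells and Pecam1 in Primitive cells. Ocln in Capillary cells had too few UMIs to be counted after thinning, with a ratio of 1.21, and so had Tjp1 there, with a ratio of 0.632. No call of Esam, Cdh5 or Tjp1 held in all 3. Lower calls were gained after thinning in 1 draw for F11r in Capillary cells, at 0.439, and Cdh5 in Cap-Arterial cells, at 0.659. Tjp1 in Stalk cells was gained at 0.633 in that draw and at 0.623 without ribosomal protein and mitochondrial genes. In another draw Cdh5 in Cap-Arterial cells was at 729 CPM at P6 and 487 CPM at P15. Tjp1 in Stalk cells was at 141 and 96.8 CPM there, and neither gene passed 1.5-fold.

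**Figure D3:**
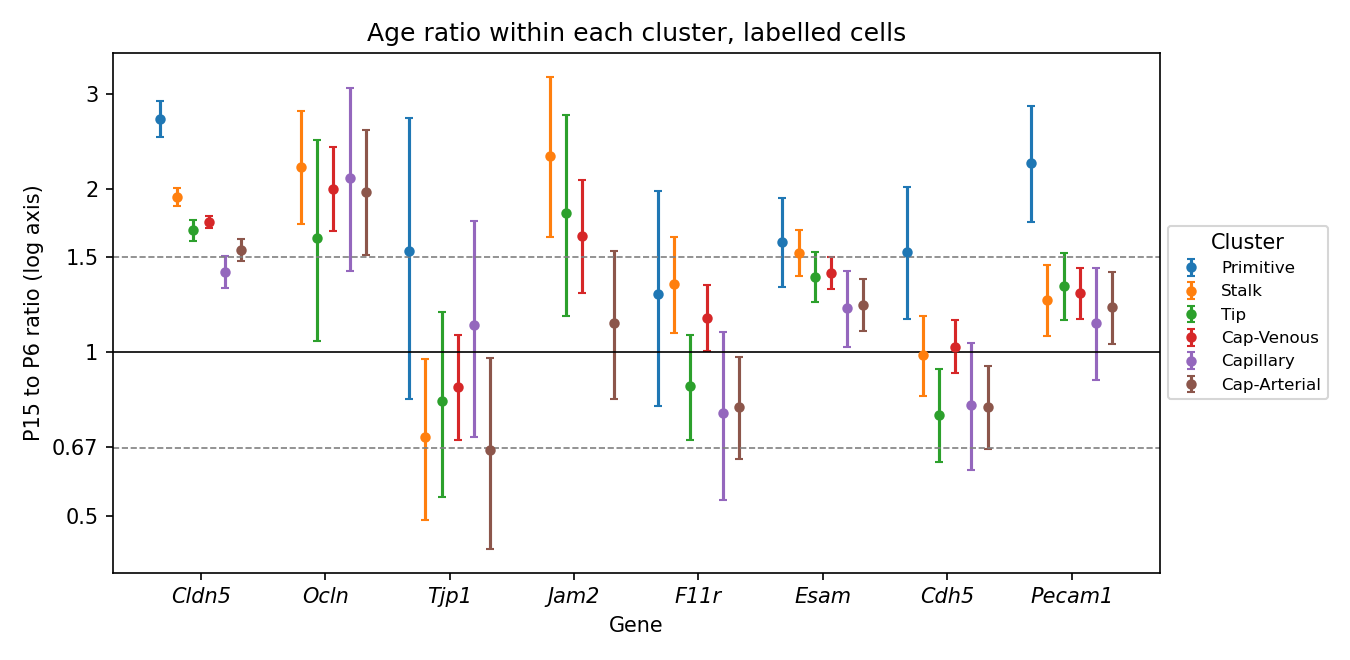
Ratio of P15 to P6 level for each junction gene within each of 6 clusters, on a log axis, with conditional binomial 95% intervals as bars and dashed lines at 1.5-fold in either direction. Points of Cldn5 and Ocln all lie above 1, and those of Tjp1, F11r and Cdh5 lie on both sides of 1.

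The sort and the filter left some RNA of other cells. Of 10 endothelial markers, all had UMIs at both ages, with a sum of 9835 CPM at P6 and 15299 CPM at P15, led by Cldn5. Without Cldn5 the sum was 4251 and 5344 CPM, still with Cdh5 and Pecam1 in it. These sums are no separate measure of endothelial RNA, because Cldn5, Cdh5 and Pecam1 are themselves junction genes described here. Of 8 pericyte and smooth muscle markers, 6 had UMIs at each age, with a sum of 10.98 CPM at P6 and 270 CPM at P15, led by Rgs5. Cspg4 was at 0 at P6, Tagln at P15 and Cd63 at both, the last by the filter. Of 8 retinal neuron markers, 7 had UMIs at each age, with a sum of 22.9 CPM at P6 and 87.5 CPM at P15. Of 6 glial markers, 5 had UMIs at P6 and 6 at P15, with a sum of 369 CPM at P6 and 1228 CPM at P15, nearly all from Glul. Of 4 red blood cell markers, 2 had UMIs at P6 and 3 at P15, with a sum of 17.5 CPM at P6 and 144 CPM at P15, led by Hbb-bs. Of 6 leukocyte markers, 5 had UMIs at each age, with a sum of 1.57 CPM at P6 and 4.48 CPM at P15 and Ptprc at 0. Of 4 platelet markers, 3 had UMIs at P6 and 4 at P15, with a sum of 46.7 CPM at P6 and 32.0 CPM at P15, led by Itga2b. Of 8 epithelial markers, 4 had UMIs at each age, with a sum of 1.31 CPM at P6 and 3.26 CPM at P15 and Epcam, Cdh1, Krt8 and Rpe65 at 0. Without cells in which 2 or more pericyte or neuron markers were detected, the ratio between ages was 1.79 for Cldn5, 2.07 for Ocln and 1.75 for Jam2. The part of the other marker groups was not tested.

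Junction genes were also counted in barcodes with markers of other cells. Unlabelled barcodes were taken that had 3 or more markers of a type and no UMI of Kdr, Tie1, Erg or Tek, a rule chosen after the data were seen. The rule leaves out barcodes with more endothelial RNA, so these levels do not measure how much free RNA there was. In 34 neural barcodes of the P6 library, with a median of 3869.5 UMIs, Cldn5 was at 324 CPM, 5.80% (4.42 to 7.46%) of its level in filtered cells, and 76.5% (58.8 to 89.3%) of these barcodes had a UMI of it. Esam stood at 7.72% (4.41 to 12.5%), Cdh5 at 6.01% (2.20 to 13.1%) and Pecam1 at 6.14% (2.25 to 13.4%), near Cldn5. Jam2 did not follow them. It was at 151 CPM, 198% (131 to 290%) of its level in filtered cells, and 52.9% (35.1 to 70.2%) of the neural barcodes had a UMI. Ocln had 0 UMIs, which allows up to 16.2 CPM.

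In 33 pericyte-like barcodes of the P15 library, with a median of 3593 UMIs and 3 of them within the filter, Cldn5 was at 886 CPM, 8.89% (7.32 to 10.7%) of its level in filtered cells, and 90.9% (75.7 to 98.1%) had a UMI of it. Pecam1 at 8.15% (3.28 to 16.8%) and Cdh5 at 12.5% (5.40 to 24.7%) were close to this. Esam was at 814 CPM, 52.7% (43.0 to 64.0%), and F11r was at 142 CPM, 42.9% (25.4 to 68.0%). Tjp1 was at 119 CPM, 95.6% (53.3 to 159%). Esam, F11r and Tjp1 were thus higher relative to Cldn5 in these barcodes than in filtered cells, and the source of these UMIs was not tested. The share of barcodes with a Cldn5 UMI was high in these cells also, so such a share does not separate them from endothelium. Whether the Cldn5 level does so cannot be read here, because the rule left out barcodes with more endothelial RNA.

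**Figure D4:**
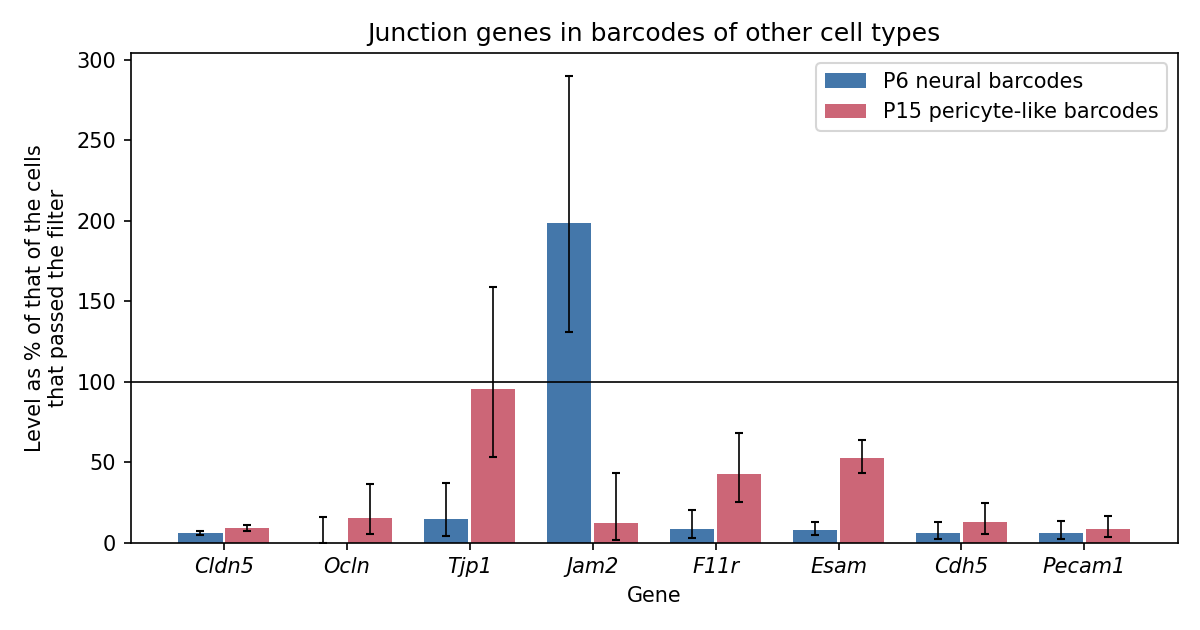
Level of 8 junction genes in 34 neural barcodes of the P6 library and 33 pericyte-like barcodes of the P15 library, as a percentage of the level in filtered cells of the same library, with conditional binomial 95% intervals as error bars. Jam2 in neural barcodes and Tjp1, Esam and F11r in pericyte-like barcodes stand above the other genes.

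Other genes of the same junctions were followed as a list of 53 genes. Of these, 46 had a row in both libraries and 36 had 100 UMIs or more. Among the 36, 6 were higher and 3 were lower at P15 by 1.5-fold or more, beside the 17.5% and 10.5% of all genes given above. Their median ratio was 1.22.

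Among tight junction genes, 2 of 11 were higher and 0 lower. Cgnl1, which encodes paracingulin, was at 68.3 CPM at P6 and 119 CPM at P15, a ratio of 1.75 (1.57 to 1.95). Cldn12, a claudin, was at 6.41 CPM at P6 and 11.7 CPM at P15, a ratio of 1.82 (1.27 to 2.64). Cgnl1 held under all 11 alternatives, and Cldn12 was lost when every deposited barcode was used. The other 9, the scaffold genes Magi1 and Afdn among them, lay between 0.753 for Mpdz and just under 1.5 for Magi1.

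Among adherens junction genes, 3 of 19 were higher and 2 lower. Without ribosomal protein and mitochondrial genes in the total, 3 were higher and 4 lower, with Cdh13 and Nectin3 added, and with every deposited barcode 5 were higher and 2 lower. Ptprb, which encodes the phosphatase VE-PTP that binds VE-cadherin, was at 258 CPM at P6 and 996 CPM at P15, a ratio of 3.86 (3.67 to 4.06). Ptprm, another receptor phosphatase at cell contacts, had a ratio of 2.02 (1.78 to 2.29), and Heg1, a membrane partner of the protein made from Krit1, 1.86 (1.70 to 2.05). Cdh2, which encodes N-cadherin, was at 229 CPM at P6 and 107 CPM at P15, a ratio of 0.466 (0.428 to 0.508), and Nectin2 had a ratio of 0.609 (0.563 to 0.658). The endothelial cadherins Cdh5 and Cdh2 thus differed in their ratios, with Cdh5 at 0.939. The other 14 genes, among them Ctnna1, Jup, Krit1, Amotl1, Rap1a and Rasip1, lay between 0.685 for Nectin3 and 1.44 for Rap1b.

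Of 6 other surface genes of endothelial contacts, Bcam was higher at 1.91 (1.71 to 2.13) and Mcam lower at 0.475 (0.434 to 0.519). The other 4, Emcn, Icam2 and Robo4 among them, lay between 1.23 and 1.34. Of 10 regulators of junction genes, 5 were higher and 1 was lower, beside 17.5% higher and 10.5% lower among all genes. Sox17 was at 2.05 (1.94 to 2.16), Foxq1 at 1.96 (1.86 to 2.07) and Erg at 1.77. Lef1 was at 1.54 (1.43 to 1.65) and Foxo1 at 1.53 (1.35 to 1.74), and both fell under 1.5-fold with the median of ratios or without ribosomal protein and mitochondrial genes in the total, which left 3 of 10 higher. Ctnnb1, in this list and among the adherens genes, had only 69 UMIs at P6 and 94 at P15. Sox18 was lower, at 466 CPM at P6 and 125 CPM at P15, a ratio of 0.269 (0.250 to 0.289).

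**Figure D5:**
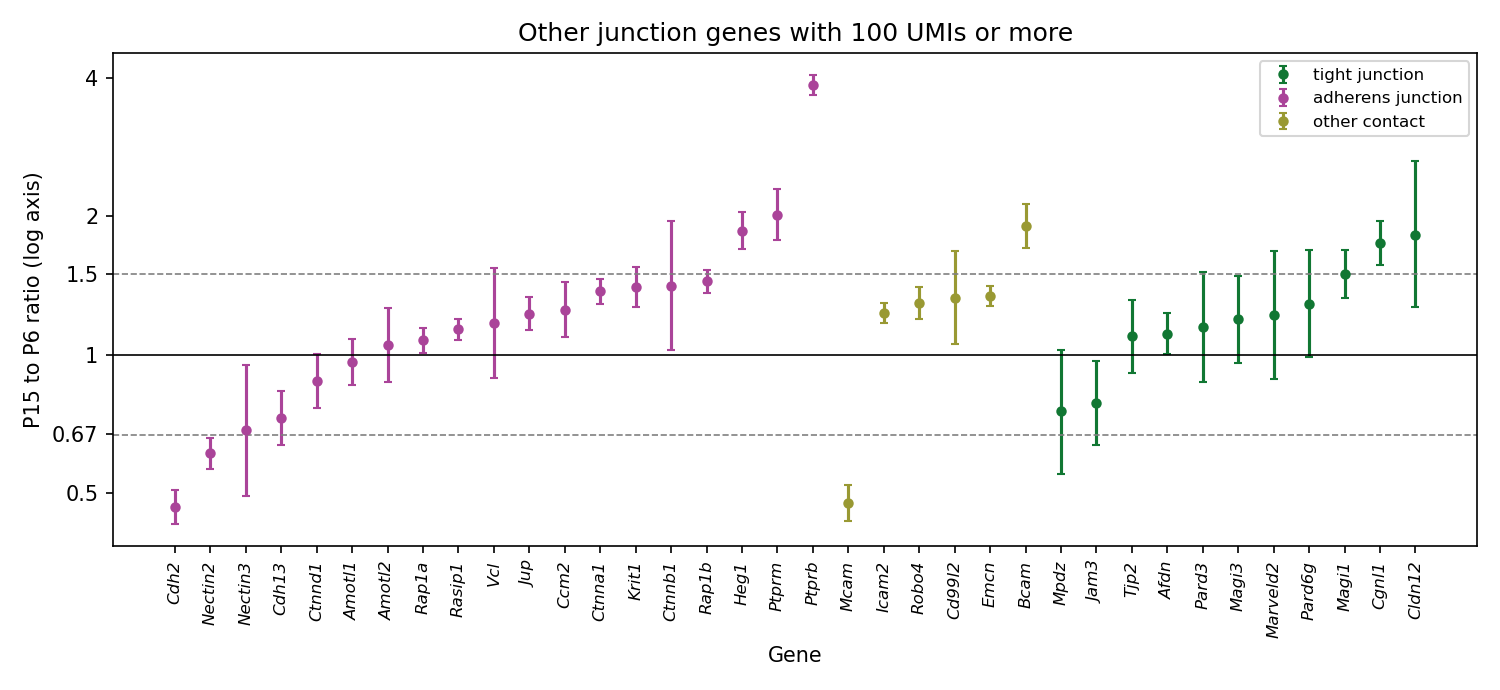
Ratio of P15 to P6 level on a log axis for the 36 other junction genes with 100 UMIs or more, by list, with conditional binomial 95% intervals as bars and dashed lines at 1.5-fold in either direction. Ptprb has the highest point, and Cdh2 and Mcam have the lowest.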

How the data were processed

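The authors deposited UMI counts per gene and barcode, 1 table per library, without normalization. The submitters' processing notes name mm10 and Seurat 3.0, and the aligner of these counts is not given in the sources used here. Gene identifiers were matched to symbols without their version, which named 22695 of 22734 P6 and 21745 of 21785 P15 identifiers, and rows of a symbol were added. Positions are from GENCODE M21 of GRCm38. Cluster names came from the study's source data, held in part for P15. Counts were summed by library or cluster, and a gene was named by a ratio of 1.5 or more in either direction, by a high UMI count or by likeness over clusters. Thinned values are from single random draws. A count of 0 was bounded by 3 counts. Doublets were weighed by barcodes with Xist and Y-linked UMIs, 9 P6 and 12 P15 cells of those that passed the filter. Labels of other P15 cells were predicted from 15 nearest neighbours on 13 principal components of 2000 genes without the 9 genes, and 5-fold checks on labelled cells returned the right label for 69.9% at P6 and 73.3% at P15. Ratio steps were tested on simulated data. Python 3.11.15, numpy 2.4.6, scipy 1.17.1, pandas 2.3.3, scikit-learn 1.9.0 and matplotlib 3.10.9 were used. The members and lists were chosen with earlier results of these data known.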

Additional observations from a re-analysis of the deposited data

Results flagged for a closer look

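Tjp1 was past 1.5-fold in opposite directions between ages in 2 clusters. Its P15 to P6 ratio was 1.54 (0.821 to 2.71) in Primitive cells, from 74 and 15 UMIs, and 0.659 (0.434 to 0.976) in Cap-Arterial cells, from 134 and 32 UMIs. With predicted P15 labels the ratios were 1.51 (1.04 to 2.18) and 0.716, and without ribosomal protein and mitochondrial genes 1.40 and 0.596. After thinning they were 1.33, from too few UMIs to be counted, and 0.853. The difference between these clusters was not tested.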

How the results depend on the processing

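No paired analysis was possible because each age had 1 library. Under 11 alternatives to the cells, the total, the weights and the mixture of clusters, 3 junction genes stayed at least 1.5-fold higher at P15 and 0 lower, and 1 was higher at a limit of 2-fold. The alternative without cells with pericyte or neuron markers, and all alternatives for the lists of other genes, were chosen after seeing the data. No ratio past 1.5-fold changed direction. Of 99 ratios of single genes between the ages under these alternatives, 67 stayed inside the interval of the reported value and 32 did not.

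The 9 higher pairs of gene and cluster within P6 came to 3 without ribosomal protein and mitochondrial genes in the total, 5 with the mean over cells, 3 with the other 8 clusters at equal weight and 2 at 2-fold. The 12 lower pairs came to 10 without ribosomal protein and mitochondrial genes in the total and 4 at 2-fold. The 18 higher pairs between the ages within clusters came to 11 without ribosomal protein and mitochondrial genes and 6 at 2-fold. The 1 lower pair came to 0 with predicted P15 labels, 2 without ribosomal protein and mitochondrial genes and 0 at 2-fold. After thinning in 1 draw it came to 4 among the same 45 pairs, 1 of them with too few UMIs left to be counted. Of these, Cdh5 in Cap-Arterial cells and Tjp1 in Stalk cells did not pass 1.5-fold in another draw. The cause of these shifts was not tested, apart from the stricter limit of 2-fold, which counts fewer pairs by construction.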
